A study of Homo sapiens with 14 samples.

Results

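The mesenchymal clone M1 of the breast cancer line SUM149PT was compared with the intermediate clone EM2 of the same line, using the 4 ATAC-seq libraries of these clones out of 14 libraries in the series. In ATAC-seq a transposase cuts and tags open chromatin, so the count in a region measures how accessible its DNA is. The cell line SUM149PT, derived from an inflammatory breast cancer, lacks the oestrogen and progesterone receptors per its labels. All cultures were untreated, and each of the 7 groups had 2 libraries: M1, EM2, the unselected line (Parental) and the clones EM1, EM3, M2 and E. The libraries to compare were taken by the clone named in their labels, and all 65771 regions that passed the count filter were tested in every library. M1 and EM2 are each 1 clone, so a difference between them is a difference between 2 clones and cannot be told apart from one that any pair of clones would show. Nothing in the labels says that a clone's libraries were grown separately, so p-values here cover the spread between libraries, which may be technical. The clone letters are not spelled out in the labels either, and the study's title names epithelial-mesenchymal transition (EMT) as its subject.

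EMT is the programme by which epithelial cells give up their cell-cell junctions and keratins and take on a migratory, matrix-producing state. Epithelial cells are held together by E-cadherin (CDH1) at adherens junctions, by claudins at tight junctions and by desmosomes, and transcription factors such as GRHL2, OVOL2 and ELF3 keep these genes on. ZEB, SNAI and TWIST proteins repress epithelial genes, and ZEB and SNAI proteins do so through E-box sequences in promoters such as that of CDH1, while vimentin, fibronectin, collagens and N-cadherin mark the mesenchymal end. Clones between these ends carry parts of both programmes, and the comparison asks which parts EM2 already shared with M1.

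Promoter sequences are shown for genes on both sides of that question: epithelial genes whose promoter region was lower in M1 (CLDN4, ELF3, DSP, KRT5), mesenchymal genes whose promoter region was equal in both clones (VIM, ZEB1, AXL, TWIST2) and a cytokine gene whose promoter region was higher (CSF2). Each is the 250 bases before the RefSeq start site in GRCh38.p14, written 5′ to 3′ on the gene's strand. Capitals mark matches on either strand to the letters CAGGTG (the E-box bound by ZEB and SNAI proteins), TGANTCA (AP-1), TGTGGT (RUNX), GGAATG (TEAD) or AACCNGTT (GRHL). These 9 sequences were chosen after the values were seen.
CLDN4 (chr7:73830746-73830995, plus strand): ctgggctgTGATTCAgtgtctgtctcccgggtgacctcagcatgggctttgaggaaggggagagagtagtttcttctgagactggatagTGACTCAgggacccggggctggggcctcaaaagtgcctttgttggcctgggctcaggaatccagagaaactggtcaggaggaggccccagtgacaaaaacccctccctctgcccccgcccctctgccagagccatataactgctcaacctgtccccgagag
ELF3 (chr1:202010337-202010586, plus strand): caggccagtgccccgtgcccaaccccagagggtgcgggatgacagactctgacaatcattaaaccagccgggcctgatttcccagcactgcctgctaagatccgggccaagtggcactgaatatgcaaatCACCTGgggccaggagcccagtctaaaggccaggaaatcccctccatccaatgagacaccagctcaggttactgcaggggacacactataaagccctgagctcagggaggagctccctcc
DSP (chr6:7541421-7541670, plus strand): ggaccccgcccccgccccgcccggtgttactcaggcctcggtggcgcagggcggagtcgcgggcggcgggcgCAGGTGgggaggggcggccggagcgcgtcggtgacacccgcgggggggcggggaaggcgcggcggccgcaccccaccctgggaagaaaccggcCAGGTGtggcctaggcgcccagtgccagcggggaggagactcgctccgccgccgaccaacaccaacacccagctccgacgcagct
KRT5 (chr12:52520395-52520644, minus strand): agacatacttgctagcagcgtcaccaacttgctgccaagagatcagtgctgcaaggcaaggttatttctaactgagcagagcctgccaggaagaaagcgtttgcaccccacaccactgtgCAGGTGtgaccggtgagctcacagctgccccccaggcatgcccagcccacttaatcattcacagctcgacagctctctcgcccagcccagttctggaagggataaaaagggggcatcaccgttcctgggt
VIM (chr10:17227991-17228240, plus strand): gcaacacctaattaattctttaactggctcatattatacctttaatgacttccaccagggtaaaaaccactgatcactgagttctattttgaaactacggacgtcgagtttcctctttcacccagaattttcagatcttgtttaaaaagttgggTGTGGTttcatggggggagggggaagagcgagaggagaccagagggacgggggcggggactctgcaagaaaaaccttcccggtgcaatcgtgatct
ZEB1 (chr10:31318167-31318416, plus strand): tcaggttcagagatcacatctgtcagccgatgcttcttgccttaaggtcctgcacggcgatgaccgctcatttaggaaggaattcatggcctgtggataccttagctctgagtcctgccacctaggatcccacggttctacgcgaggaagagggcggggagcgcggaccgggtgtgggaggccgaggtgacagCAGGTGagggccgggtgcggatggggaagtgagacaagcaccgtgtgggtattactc
AXL (chr19:41218973-41219222, plus strand): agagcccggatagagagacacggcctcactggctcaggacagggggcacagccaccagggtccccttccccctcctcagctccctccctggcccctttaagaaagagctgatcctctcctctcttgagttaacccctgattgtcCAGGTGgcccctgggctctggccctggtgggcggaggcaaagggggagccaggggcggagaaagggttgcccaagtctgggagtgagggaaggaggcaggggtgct
TWIST2 (chr2:238847835-238848084, plus strand): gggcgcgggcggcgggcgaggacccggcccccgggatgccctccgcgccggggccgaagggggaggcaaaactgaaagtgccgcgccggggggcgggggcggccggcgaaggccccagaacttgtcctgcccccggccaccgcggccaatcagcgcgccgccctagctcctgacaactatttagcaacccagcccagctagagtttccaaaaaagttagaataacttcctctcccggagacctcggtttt
CSF2 (chr5:132073539-132073788, plus strand): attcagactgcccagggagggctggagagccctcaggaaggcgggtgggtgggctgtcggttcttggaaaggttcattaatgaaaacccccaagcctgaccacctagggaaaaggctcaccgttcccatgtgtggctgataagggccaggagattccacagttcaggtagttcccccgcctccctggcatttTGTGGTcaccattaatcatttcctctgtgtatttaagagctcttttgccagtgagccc
In these sequences the E-box letters stood 1 time in ELF3, 2 times in DSP and 1 time in KRT5. They also stood 1 time each in ZEB1 and AXL, whose promoter regions were equal in both clones. CLDN4 held no E-box match but 2 AP-1 matches, and VIM and CSF2 each held 1 RUNX match, the one in VIM overlapping the letters GGGTGTG of a KLF match. Of the 34 EMT genes followed by name below, 21 had a promoter in the RefSeq table, and 5 of these held the E-box letters. Among all 27305 promoters in that table, 4781 held them.

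M1 and EM2 differed at about as many regions as they were equal. Of the 65771 regions, 21500 differed at an adjusted p under 0.05 (edgeR quasi-likelihood test, Benjamini-Hochberg adjustment), which is 32.7% of all. Of these, 9257 were more accessible in M1 (14.1% of all) and 12243 were less accessible (18.6% of all). A separate test for equality asked whether the difference lay within 2-fold in either direction, and 25240 regions passed it (38.4%). Of these, 24321 were not called different (37.0%) and are named equal here, while 919 differed by a small but called amount. The other 19950 regions passed neither test, so nothing is said of them. With a bound of 1.5-fold no region passed the equality test after adjustment, and 12668 did at an unadjusted p under 0.05 (limma), so "equal" means within 2-fold and no closer. Without the second M1 library 8143 regions were called lower and 13639 passed the equality test, and without the second EM2 library 16601 passed it.

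EM2 was the EM clone nearest to M1, though still far from it. The correlation of group mean log2 values with M1 was 0.72 for EM2, 0.62 for EM3, 0.57 for EM1 and 0.56 for Parental, against 0.90 between EM2 and Parental. The same contrast called 25413 regions (38.6%) against EM3, 26965 (41.0%) against EM1, 27879 (42.4%) against Parental, 28812 (43.8%) against E and 37022 (56.3%) against the other M clone, M2. All of these comparisons share the M1 libraries, so they are given side by side and were not tested against each other. The M1 libraries held 9371935 and 14608738 counts and the EM2 libraries 12935538 and 12597345, within the range of 8138944 to 16786823 of the series. Replicates correlated at 0.955 in M1 and 0.948 in EM2 and at 0.873 to 0.970 elsewhere, the lowest value being that of the E libraries, which enter the fit only through the shared spread. In bulk libraries fewer cells in a state and less accessibility per cell cannot be told apart.

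Values below are CPM, counts scaled to each library's size by TMM, in the first and second library of each clone. The log2 difference is M1 minus EM2, and positions are in hg38. A gene end is either boundary of the gene, and a gene-end region lies within 1 kb of one.

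Several loci of epithelial master regulators were lower in M1. GRHL2, a grainyhead factor that keeps epithelial enhancers open, had a gene-end region (chr8:101492217-101492855) with 0.851 and 0.793 CPM in M1 and 20.04 and 26.8 CPM in EM2. EM2 was thus at a level between M1 and Parental, whose mean was 43.1 CPM. EM1 had 32.5 and EM3 23.4 CPM there, so such a level was not particular to EM2. The libraries of M1 and EM2 did not overlap, as at 43632 of all 65771 regions (66.3%) in either direction. Among called regions this held for 12241 of 12243 lower and 9247 of 9257 higher ones. The log2 difference was -4.82 (adjusted p = 1.3e-06). Its 10 Mb window had a median log2 difference of -0.50 over all its regions, and -4.33 remained after that median was taken off.

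ESRP1, which directs the epithelial splicing of CD44, FGFR2 and other transcripts, had 5.42 and 4.36 CPM in M1 and 49.0 and 49.5 CPM in EM2 over its gene end (chr8:94640217-94641197). EM2 lay close to the Parental mean of 57.4 CPM and M1 close to the M2 mean of 5.86 CPM. The log2 difference of -3.35 (adjusted p = 3.3e-07) was -2.69 after removal of a window median of -0.66. CDH1, which encodes E-cadherin, had 2.66 and 2.38 CPM in M1 and 24.4 and 18.5 CPM in EM2 in the gene-end region with the highest mean over the 14 libraries (chr16:68738070-68738719). The log2 difference between them was -3.10 (adjusted p = 1.2e-05). The Parental mean was 39.9 CPM with a standard deviation of 11.7 CPM, and EM1 had 31.3 and EM3 27.2 CPM. M1 thus lay far below Parental and EM2 below its mean, but EM2 alone was not tested against Parental. Its other gene-end region (chr16:68737079-68737557) had 2.02 and 2.51 CPM in M1 against 22.1 and 23.1 CPM in EM2 (log2 -3.29). The window median there was 0.06.

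The change ran through whole loci rather than 1 promoter. At CDH1, 7 of 10 assigned regions were lower in M1, and the largest difference lay 7486 bp inside the gene (chr16:68744778-68745228), with 1.81 and 0.793 CPM in M1 against 32.1 and 29.9 CPM in EM2 (log2 -4.67). The 3 remaining regions, at the highest coordinates within the gene, were equal in 1 case and undecided in 2. At ESRP1, 7 of 8 regions were lower in M1 and none was equal. At GRHL2, 6 of 13 regions were lower and 4 were equal, and these 4 all lay 32134 to 45853 bp outside the gene, with 8.19 to 16.6 CPM in M1 and 7.01 to 16.6 CPM in EM2. The lower regions of GRHL2 all lay nearer to the gene than these 4.

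Other epithelial regulators moved in both directions. OVOL2, a zinc finger repressor of mesenchymal genes, had 3.30 and 2.44 CPM in M1 against 29.4 and 21.0 CPM in EM2 (log2 -3.15), and all 3 of its regions were lower. ELF3, an ETS factor of differentiated epithelium, had 7.23 and 6.34 CPM against 39.3 and 33.0 CPM over the promoter printed above (log2 -2.42). EHF, its close relative, was mixed, with 3 of its 12 regions higher, 3 lower and 3 equal. Its gene-end region had 0.744 and 0.595 CPM in M1, 1.93 and 1.87 CPM in EM2 and a mean of 12.7 CPM in Parental. That region was neither different nor equal (log2 -1.51, adjusted p = 0.073, interval -3.72 to 0.76). Another EHF region (chr11, start 34653810) was equal, with 108.8 and 103.9 CPM in M1, 91.95 and 80.98 CPM in EM2 and 94.7 CPM in Parental. One more (start 34599478) was higher in M1, with 39.1 and 60.5 CPM against 10.6 and 10.5 CPM in EM2 and 9.29 CPM in Parental (log2 2.24). Regions of the epithelial factor genes GRHL3 and SPDEF were also higher in M1. GRHL3 had 5.95 and 6.41 CPM against 0.771 and 1.56 CPM (log2 2.40), and SPDEF 10.6 and 13.3 CPM against 4.39 and 4.29 CPM (log2 1.47).

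Among junction genes, the tight junction gene CLDN4 had 4.89 and 3.50 CPM in M1 against 40.2 and 25.3 CPM in EM2 at its gene-end region (log2 -2.98). The region over its promoter (chr7:73830719-73831132), which covers the whole of the printed sequence, fell from 14.7 and 11.2 CPM in EM2 to 0.957 and 0.991 CPM in M1 (log2 -3.72). The desmosomal plaque gene DSP had 10.8 and 13.2 CPM against 49.1 and 42.8 CPM at its promoter (log2 -1.92), EPCAM 9.68 and 9.58 CPM against 26.9 and 33.2 CPM (log2 -1.64), and CDH3, which encodes P-cadherin, 16.9 and 15.1 CPM against 40.5 and 36.9 CPM (log2 -1.28). M1 lay below EM2 in both libraries at each of these genes, though the clones also did not overlap at 66.3% of all regions. The basal keratin gene KRT5 had 1.59 and 2.51 CPM against 8.17 and 12.9 CPM (log2 -2.32). CLDN7 fell by 0.80 on the log2 scale, from 13.4 and 11.5 CPM to 7.66 and 6.74 CPM, but its call was lost under 6 of the alternatives, with adjusted p up to 0.22.

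ESRP2, OVOL1, KLF5, KRT18, TP63, CDH2, ZEB2, PRRX1 and RUNX1 had no gene-end region and are described, where named, by other regions. RUNX1 was equal in 7 of its 8 regions.

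**Figure D1:**
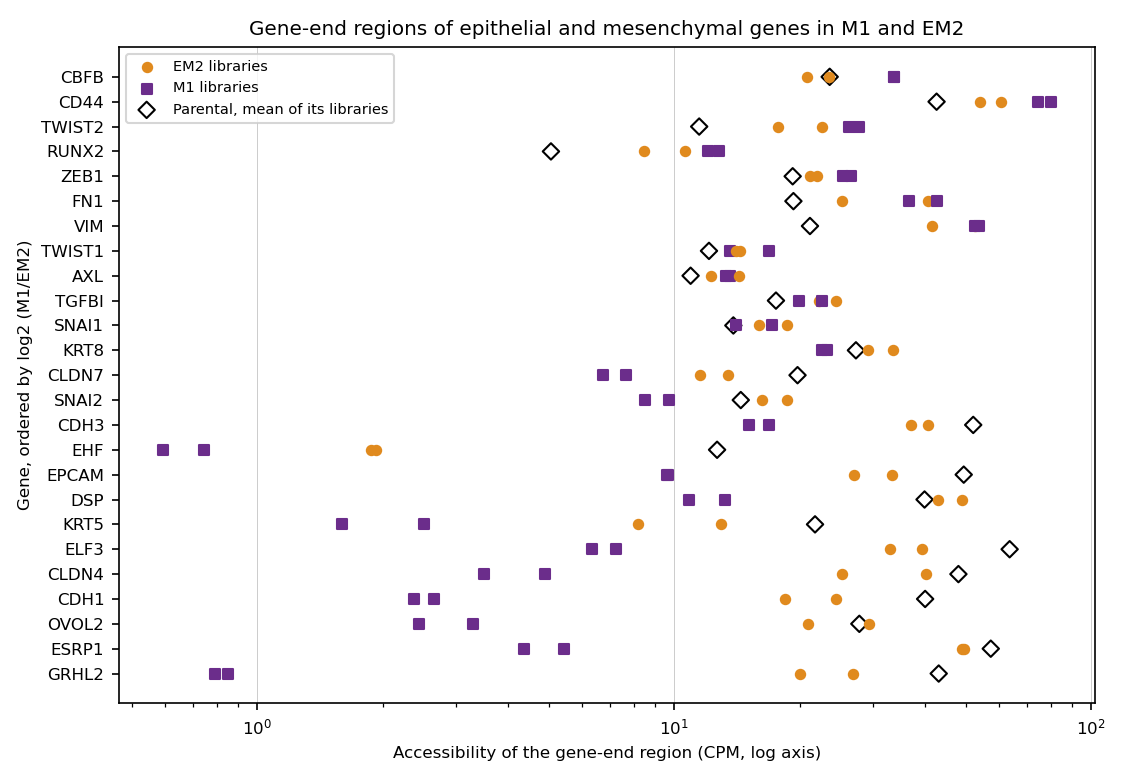
Accessibility of the gene-end region of EMT genes in CPM on a log axis, with 1 point per library of M1 and EM2 and the mean of Parental as an open diamond, ordered by the log2 difference. Epithelial genes from GRHL2 to CDH3 sit far apart in the clones, while VIM, TWIST1, AXL, TGFBI and SNAI1 sit together near the middle of the order.

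Over whole gene lists the epithelial programme was lower in M1. The list counts below stand beside 18.6% lower, 14.1% higher and 37.0% equal among all regions. Of 123 regions assigned to epithelial identity genes (within 50 kb of the gene end), 66 were lower in M1, 8 were higher and 27 were equal, with a median log2 difference of -0.98 against -0.03 over all regions. With the window medians removed the median was -0.78. Within 1 kb of a gene end, 19 of 24 were lower and none was higher, against 12.6% lower and 4.64% higher among all regions that near. Summed over the 123 regions, the libraries held 1358 to 1428 CPM in M1, 2099 to 2207 CPM in EM2, 2736 to 2987 CPM in Parental and 1228 to 1279 CPM in M2. EM2 thus lay between Parental and M1 on this sum, and M1 lay above M2. The other clones also lay between Parental and M1, with 2267 to 2442 CPM in E, 2517 to 2622 CPM in EM1 and 2266 to 2349 CPM in EM3. A sum below Parental was therefore not particular to EM2.

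Desmosome and hemidesmosome genes had 60 of 121 regions lower and 5 higher (median log2 -0.68). JUP, which encodes plakoglobin and links desmosomal cadherins to the plaque, had an intragenic region (chr17:41772233-41772548) with 0.213 and 0.529 CPM in M1 against 16.0 and 13.8 CPM in EM2 (log2 -5.18), and another 8837 bp inside the gene that was higher in M1, with 15.1 and 12.2 CPM against 3.16 and 3.43 CPM (log2 2.04). The desmoglein gene DSG3 had 0.319 and 0.595 CPM against 13.5 and 15.3 CPM at its end (log2 -4.87). All 5 regions of DSP were lower. Tight junction genes had 24 of 63 regions lower and 3 higher (median -0.32), and F11R, which encodes the junctional adhesion molecule JAM-A, fell from 71.0 and 73.0 CPM to 14.5 and 11.6 CPM at its end (log2 -2.47).

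Basal genes had 39 of 97 regions lower and 7 higher (median -0.50), and keratins 19 of 63 lower and 1 higher (median -0.31). The strongest calls in both lay 27005 to 30967 bp from KRT17, a keratin of basal and stressed epithelium. The first, at chr17:41655542-41656107, had 2.55 and 2.51 CPM in M1 against 48.2 and 48.1 CPM in EM2 (log2 -4.25, adjusted p = 1.4e-07). A region near TP63, the gene of the basal master regulator p63 (chr3, 24023 bp from the gene), had 0.532 and 0.396 CPM against 10.5 and 15.0 CPM (log2 -4.79). Of the 9 regions of TP63 5 were lower, and 1 of these also passed the equality test. TP63 lies in a window with a median of -0.43, and the median over its regions was -0.58, or -0.15 with that removed. Luminal genes were split: 17 of 49 regions were lower, 3 were higher and 22 were equal. As shares these were 34.7%, 6.12% and 44.9%, against 18.6%, 14.1% and 37.0% of all regions. ERBB2 fell in an intragenic region from 8.09 and 11.5 CPM to 1.59 and 0.859 CPM (log2 -3.05), whereas an intragenic region of the oestrogen receptor beta gene ESR2 rose from 19.0 and 16.9 CPM to 73.3 and 44.9 CPM (log2 1.72).

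On the mesenchymal side several marker genes were equal within 2-fold at their gene ends. VIM, which encodes vimentin, had 53.8 and 52.7 CPM in M1 and 52.6 and 41.4 CPM in EM2 over its promoter (chr10:17228163-17228903), against a mean of 21.1 CPM in Parental. This region covers only the last part of the printed VIM sequence and begins after its marked RUNX match. Both clones stood above Parental, and their difference was 0.18 on the log2 scale with a 95% interval from -0.23 to 0.60. EM1 with 31.7, EM3 with 36.8 and M2 with 65.3 CPM also stood above Parental there, while E had 15.6 CPM. FN1, which encodes fibronectin, had 42.6 and 36.5 CPM against 40.5 and 25.3 CPM, overlapping between the clones and above the Parental mean of 19.3 CPM (log2 0.26, interval -0.25 to 0.81).

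The EMT transcription factors ZEB1, SNAI1, TWIST1 and TWIST2 were also equal at their gene ends. ZEB1 had 25.4 and 26.5 CPM in M1 and 22.0 and 21.2 CPM in EM2 (log2 0.27, interval -0.04 to 0.58), with 19.2 CPM in Parental. TWIST1 had 13.6 and 16.8 CPM against 14.3 and 14.03 CPM (log2 0.11, interval -0.29 to 0.54). TWIST2 had 26.3 and 27.7 CPM against 22.7 and 17.7 CPM, both clones above the Parental mean of 11.5 CPM (log2 0.42, interval 0.03 to 0.84). ZEB1 and TWIST1 differed little from Parental as well, so their equality is not a gain shared by the 2 clones. The calls of equality for FN1, SNAI1, TWIST2 and the keratin gene KRT8 were lost when single libraries were left out (highest adjusted p = 0.22, FN1), while those of VIM, ZEB1, TWIST1, AXL, TGFBI and CD44 were kept under all alternatives except the 1.5-fold bound.

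AXL, a receptor tyrosine kinase linked to the mesenchymal state, had 13.6 and 13.3 CPM in M1 against 12.3 and 14.3 CPM in EM2 (log2 0.02, interval -0.46 to 0.50). TGFBI, a TGF-beta-induced matrix protein, had 19.9 and 22.6 CPM against 24.4 and 22.2 CPM (log2 -0.13). CD44, the hyaluronan receptor, had 74.4 and 80.0 CPM against 60.6 and 54.1 CPM at its promoter. It was equal within 2-fold and missed the difference call narrowly (log2 0.43, adjusted p = 0.058), and 8 alternatives called it higher. SNAI2, which encodes Slug, went the other way, with 8.51 and 9.71 CPM in M1 against 18.7 and 16.2 CPM in EM2 (log2 -0.93, adjusted p = 0.016). Its window median was -0.54, and the call at this gene end was lost with that median removed and when single libraries were left out. Over the whole SNAI2 locus 5 of 6 regions were lower in M1, and none was higher or equal. Their median log2 difference was -1.02, or -0.49 with the window median removed.

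Around such genes some regions away from the gene end were higher in M1. At VIM itself, 3 of 8 regions were higher in M1, among them one 735 bp past the gene (chr10, start 17238328) with 21.8 and 22.3 CPM against 4.70 and 5.92 CPM in EM2 and 0.702 CPM in Parental (log2 2.05). CDH2, which encodes N-cadherin and had no gene-end region, had 2 of 3 regions higher, one of them with 11.3 and 19.7 CPM against 0.617 and 0.234 CPM (log2 5.16). The Parental mean there was 5.89 CPM, so EM2 lay below Parental and M1 above it. The other had 7.97 and 7.07 CPM against 2.24 and 2.88 CPM, with 5.93 CPM in Parental (log2 1.55). CD44 had 5 regions higher, 3 lower and 6 equal out of 16. The locus of 1 gene could therefore move in both directions. The loci described region by region were picked after their values were seen.

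Mesenchymal effector genes as a list had 65 of 223 regions higher in M1, 18 lower and 82 equal (median log2 0.30). As shares these were 29.1%, 8.07% and 36.8%, against 14.1%, 18.6% and 37.0% of all regions. Summed over the list, M1 held 4460 to 4467 CPM, EM2 3451 to 3567 CPM and Parental 3008 to 3152 CPM. The sum was also above Parental in EM1 (3205 to 3228 CPM), EM3 (3294 to 3338 CPM) and M2 (3736 to 4005 CPM). In E it was below, with 2829 to 2866 CPM. CDH11, a cadherin of mesenchymal cells, had 28.2 and 29.1 CPM in an intragenic region of M1 against 0.771 and 0.623 CPM in EM2 (log2 5.34, adjusted p = 8.1e-07), and M2 had 0.0955 CPM there. EM2 lay below the Parental mean of 3.01 CPM at that region, and E had 4.60, EM1 6.80 and EM3 11.2 CPM. PDGFC, which encodes a platelet-derived growth factor, had 21.5 and 22.9 CPM against 0.231 and 0.468 CPM (log2 5.95), and here M2 had 18.5 CPM. The proteoglycan gene DCN had 17.8 and 21.1 CPM against 1.16 and 1.32 CPM (log2 3.96). CDH11 and PDGFC show that the other M clone shared some but not all of these regions.

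Collagens and matrix proteases had 44 of 154 regions higher and 12 lower (median 0.26). These shares were 28.6% and 7.79%, against 14.1% and 18.6% of all regions. A region 19412 bp from COL1A2, which encodes a type I collagen chain, had 8.72 and 9.84 CPM in M1 and only 3 counts over both EM2 libraries, a ratio of 81.0 with a 95% counting interval from 27.4 to 395. ADAM12, a membrane metalloprotease, had 19.2 and 10.2 CPM against 0.462 and 0.468 CPM (log2 4.95), and another metalloprotease gene, ADAMTS6, 17.8 and 17.8 CPM against 0.462 and 0.234 CPM. MMP10 went down, with 0.638 and 0.793 CPM against 5.32 and 5.85 CPM (log2 -2.92). EMT transcription factors as a list had 5 of 58 regions higher, 12 lower and 30 equal. As shares, 8.62% were higher against 14.1% of all regions, 20.7% lower against 18.6% and 51.7% equal against 37.0%. FOXQ1 had a distal region with 21.5 and 19.0 CPM against 2.31 and 1.71 CPM (log2 3.32), and ZEB2 an intragenic region with 3.30 and 2.44 CPM against 17.4 and 18.3 CPM (log2 -2.65).

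Signalling genes were mixed, apart from the NF-kB and cytokine list, where 34 of 92 regions were higher, 8 lower and 31 equal (median 0.42). In that list 37.0% were higher, 8.70% lower and 33.7% equal, against 14.1%, 18.6% and 37.0% of all regions. IL1B, which encodes the inflammatory cytokine interleukin-1 beta, had 38.6 and 50.4 CPM at 2547 bp from its gene in M1 against 1.16 and 1.32 CPM in EM2 (log2 5.15, adjusted p = 9.4e-07). The chemokine gene CCL2 had 21.3 and 21.1 CPM against 1.31 and 0.701 CPM (log2 4.38). CSF2, which encodes GM-CSF and whose promoter is printed above, had 39.9 and 42.6 CPM against 12.02 and 9.98 CPM (log2 1.91). Its level in EM2 was close to the Parental mean of 12.6 CPM. A region of another cytokine gene, IL1A, was lower in M1, with 0.319 and 0.595 CPM against 7.09 and 6.94 CPM (log2 -3.83).

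In the TGF-beta list, 26 of 182 regions were higher, 24 lower and 91 equal. SMAD3, a receptor-activated transcription factor of that pathway, had 8 of its 17 regions higher and 1 lower, while the region over its gene end was equal, with 26.9 and 28.8 CPM against 20.6 and 27.7 CPM. The largest rise at SMAD3 was in an intragenic region (chr15:67109400-67109906) with 31.9 and 30.3 CPM in M1 against 0.462 and 0.0779 CPM in EM2 and 0.442 CPM in Parental. LTBP1, which stores latent TGF-beta in the matrix, lost an intragenic region, with 0.744 and 0.595 CPM against 29.8 and 24.1 CPM (log2 -5.34). The type I receptor gene TGFBR1 was equal at its promoter, with 72.7 and 65.1 CPM against 70.4 and 65.2 CPM (interval -0.25 to 0.27).

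Wnt genes had 17 of 146 regions higher and 26 lower, Hippo and TEAD genes 20 of 127 higher and 25 lower, AP-1 genes 11 of 75 higher and 13 lower, and RUNX genes 11 of 55 higher and 9 lower. The shares lower ran from 16.4% to 19.7%, close to the 18.6% of all regions, and Wnt genes had 11.6% higher against 14.1% of all regions. YAP1, the Hippo effector, rose in an intragenic region from 8.40 and 5.61 CPM to 30.0 and 33.9 CPM (log2 2.19), while SFRP1, a secreted Wnt inhibitor, fell from 45.7 and 56.4 CPM to 9.36 and 7.60 CPM (log2 -2.60, window median -0.54). A region 17232 bp from JUN had 6.91 and 8.13 CPM in M1 and 3 counts in EM2 (ratio 65.9, counting interval 22.2 to 322), and one 23968 bp from FOS had 1.38 and 0.793 CPM against 21.5 and 23.0 CPM (log2 -4.41). The gene end of CBFB, the partner of RUNX factors, was called higher by a small amount that also passed the equality test (log2 0.60, adjusted p = 0.029), and that call was lost under 5 alternatives (adjusted p up to 0.16). Its equality call was lost under 9 (adjusted p up to 0.21), among them every other scaling and DESeq2.

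Genes of cell types other than breast epithelium were counted too. Endothelial genes had 11 of 49 regions higher and 4 lower (median 0.38), and blood cell genes 6 of 38 higher and 5 lower. The shares higher were 22.4% and 15.8%, against 14.1% of all regions. The shares lower were 8.16% and 13.2%, against 18.6%. Summed over the endothelial list, M1 held 649 to 738 CPM, EM2 483 to 538 CPM and Parental 447 to 448 CPM, and the blood list held 516 to 552 CPM in M1 and 493 to 508 CPM in EM2. No region of either list was without counts in M1 or EM2. The ETS factor gene ERG led the endothelial list, with 19.7 and 18.8 CPM at 17592 bp from the gene in M1 against 0.154 and 0.468 CPM in EM2 (log2 5.90). PECAM1, CDH5, VWF and PTPRC had no gene-end region. The blood cell genes CD3E and SPI1 had one, with means of 35.9 CPM (CD3E) and 24.3 CPM (SPI1) in M1. In EM2 these means were 49.2 CPM for CD3E and 29.6 CPM for SPI1. Whether cells of another type took part was not tested. Of 63 regions of housekeeping genes, 2 were higher, 9 lower and 34 equal.

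**Figure D2:**
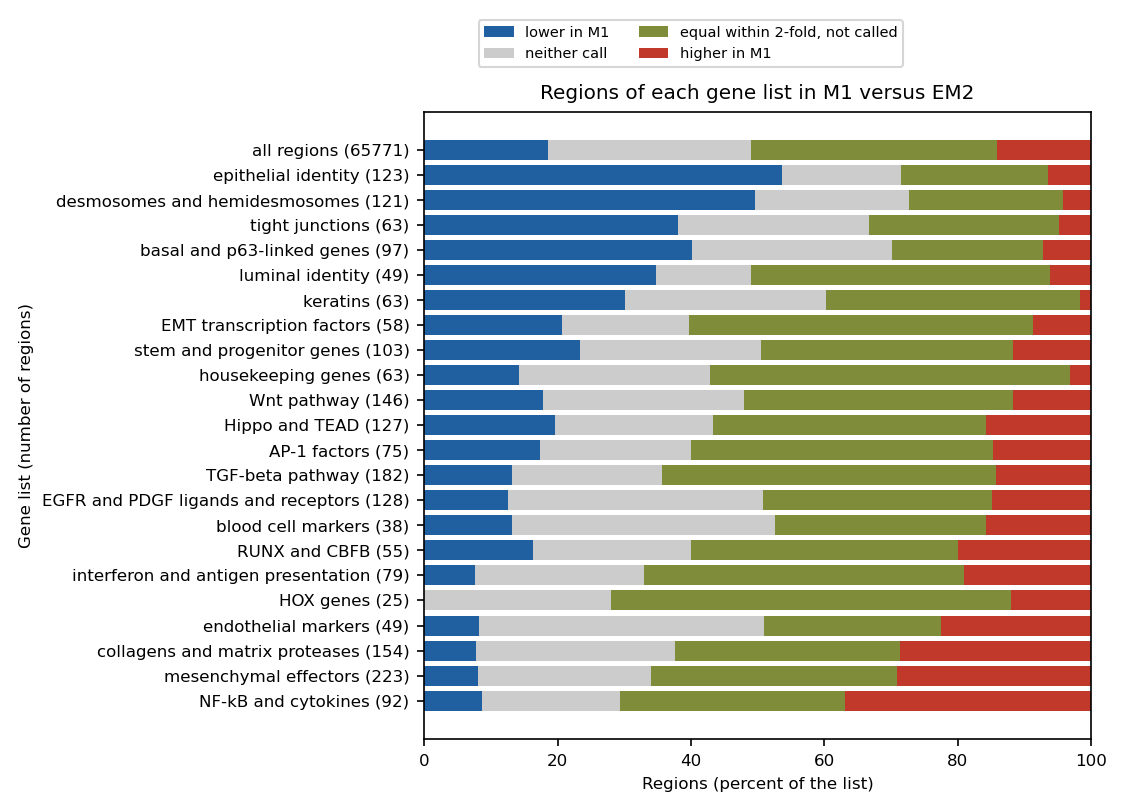
Share of the regions of each gene list that were lower in M1, passed neither test, were equal within 2-fold, or were higher in M1, in percent of the list, with the number of regions in brackets and all regions on top. Epithelial, desmosome and tight junction lists are mostly blue or undecided, and NF-kB, mesenchymal and collagen lists hold the largest red shares.

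The next regions are the largest differences within a limited set: called regions within 10 kb of a gene end, with libraries that did not overlap and a mean log2 accessibility above the median region. Larger differences exist outside it, such as the rise at SMAD3 (log2 6.79) and the regions of ANKRD33B, which had no count in M1. Within this set the largest fall was at 6407 bp from AMOTL2, which encodes an angiomotin-family protein that binds the Hippo effector YAP, with 0.213 and 0.132 CPM in M1 against 34.6 and 25.6 CPM in EM2 (log2 -7.43, 4 counts in M1). In all, 12 of the 14 regions of AMOTL2 were lower, in a window whose median was -0.94. A region over the end of RBBP8, a DNA end resection gene, had 0.106 and 0.396 CPM against 25.4 and 24.1 CPM (log2 -6.40), and one in HPGDS, a prostaglandin D synthase gene, 0.532 and 0.132 CPM against 24.2 and 25.7 CPM (log2 -6.38). HPGDS lies in a window with a median of -0.28, and Parental was at 39.0 CPM in the RBBP8 and 29.6 CPM in the HPGDS region. The M2 means were 0.363, 0.267 and 2.08 CPM, so all 3 regions were low in both M clones.

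The largest rise within the same set was in UBE2J2, a ubiquitin-conjugating enzyme gene of the endoplasmic reticulum, with 22.0 and 30.4 CPM in M1 against 0.694 and 1.01 CPM in EM2 (log2 4.93). GLUL, which encodes glutamine synthetase, had 42.8 and 36.1 CPM against 3.78 and 4.05 CPM at its promoter (log2 3.33), and XYLT1, which starts the sugar chains of proteoglycans, 34.3 and 40.1 CPM against 6.55 and 4.99 CPM (log2 2.69). In UBE2J2, GLUL and the anion transporter gene SLCO4C1, EM2 lay below Parental: SLCO4C1 had 14.1 and 13.6 CPM in M1, 1.85 and 0.312 CPM in EM2 and a mean of 20.2 CPM in Parental. At that promoter the other 6 groups ranged from 13.1 to 25.2 CPM, so EM2 was the group that stood apart. EM2 was also the lowest group at GLUL. The M1 mean there (39.5 CPM) was close to EM1 (36.6 CPM) and EM3 (40.7 CPM) and below M2 (55.1 CPM), with Parental at 17.3 CPM. The GLUL difference was therefore a low level in EM2 more than a high one particular to M1. At UBE2J2 EM2 was the lowest group too, while M1 lay above every group but M2 (53.4 CPM). RRAD, a Ras-related GTPase gene, instead had 77.3 and 58.3 CPM in M1 against 8.25 and 10.4 CPM in EM2 and 8.43 CPM in Parental (log2 2.86).

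By gene, the most regions that all rose were at BMPER, which encodes a secreted regulator of BMP signalling, with 10 of 11 regions higher (median log2 2.57). The collagen genes COL5A1 (6 of 8) and COL6A3 (6 of 13), the chemokine gene CXCL8 (6 of 8) and the interleukin-1 receptor gene IL1R1 (6 of 11) followed with PDGFC (7 of 22), the Polycomb gene PHC2 (6 of 10) and LOC124904930 (7 of 10). In the other direction stood AMOTL2, the calpain gene CAPN8 (9 of 12, median -1.94), DZIP1L (9 of 10), the plakophilin gene PKP1 (9 of 11), TNK2 (8 of 9), TOMM20 (8 of 13), BDH1 (7 of 11) and ANKRD33B (7 of 7). AMOTL2 and DZIP1L share a 10 Mb window with a median of -0.94, and TNK2 and BDH1 one with a median of -0.79.

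**Figure D3:**
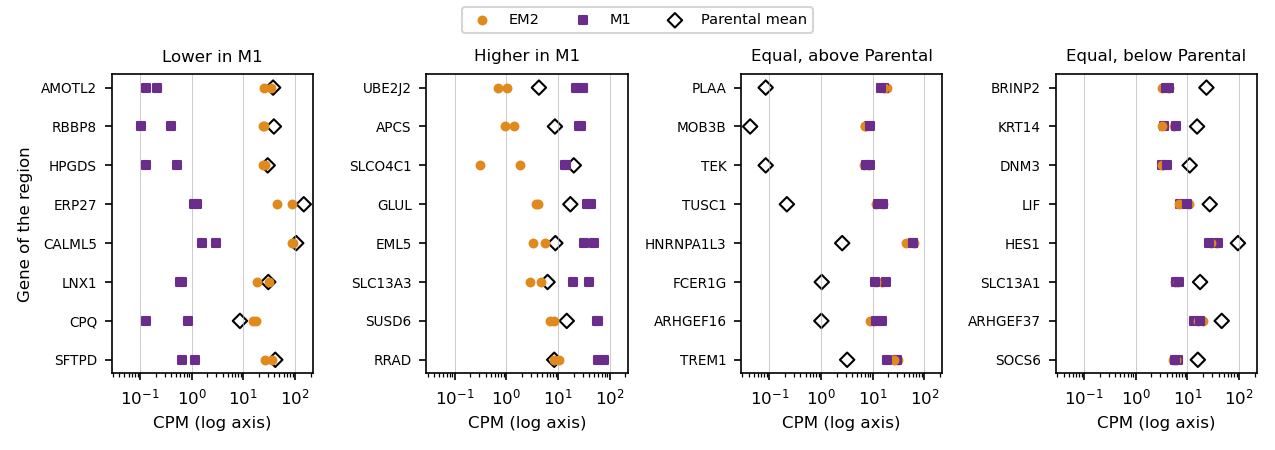
CPM on a log axis for 8 regions of each kind, with 1 point per library of M1 and EM2 and the mean of Parental as a diamond: 8 of the largest falls and of the largest rises within that set, and of the equal regions farthest above and below Parental. In the first 2 panels the clones stand apart, and EM2 is near or below Parental except at CPQ, where it is above, while in the last 2 the clones share 1 level away from Parental.

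Regions that were equal in the clones and away from Parental were the minority of those away from Parental. The mean of M1 and EM2 differed from Parental at 21077 regions (32.0%), 8083 higher (12.3%) and 12994 lower (19.8%). Of these 21077, M1 and EM2 differed from each other at 13525, were equal at 3127 and passed neither test at 4425. Of the 8083 higher regions, 1836 were equal, which is 22.7% of them, and of the 12994 lower regions 1291 were equal, or 9.94%. In 4462 of the higher regions M1 was called above EM2 and in 75 below it, and in 8636 of the lower regions M1 was called below EM2 and in 352 above it. These calls are on the mean of both clones, so EM2 alone need not have left the Parental level, as the SMAD3 and RRAD values show. Among the 44694 regions not called against Parental, 21194 were equal in M1 and EM2, so most equal regions had not been called against Parental at all.

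Equal regions above Parental included one at IGSF9B, an adhesion molecule gene, with 14.03 and 14.2 CPM in M1, 12.2 and 12.6 CPM in EM2 and 1.98 CPM in Parental. It kept its call under all alternatives except the 1.5-fold bound. TREM1, a receptor gene of myeloid cells, had 29.7 and 19.3 CPM against 30.6 and 25.8 CPM, with 3.20 CPM in Parental, and its equality was lost without the first M1 or the second EM2 library (highest adjusted p = 0.11).

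Equal regions below Parental included the end of RABGAP1L, with 24.7 and 21.3 CPM in M1, 28.2 and 30.1 CPM in EM2 and 69.2 CPM in Parental, and that of the fatty acid elongase gene ELOVL7, with 9.68 and 7.73 CPM, 9.25 and 10.1 CPM and 24.4 CPM. A region 2591 bp from HES1, a Notch target gene, had 38.6 and 26.7 CPM in M1 and 37.4 and 28.8 CPM in EM2 against 94.95 CPM in Parental. It lies in the window with a median of -0.79, and with that median removed it was no longer called equal. A second HES1 region was not equal at all, with 1.70 and 1.19 CPM in M1, 17.3 and 13.7 CPM in EM2 and 51.9 CPM in Parental (log2 -3.46). A region near KRT14, a basal keratin gene, had 3.51 and 6.08 CPM against 5.55 and 3.27 CPM, below 15.4 CPM in Parental, but 10 alternatives did not call it equal.

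Promoters were mostly equal and distal regions were where the clones differed. Within 1 kb of a gene end, 2127 of 12338 regions were called (573 higher, 1554 lower) and 8641 were equal. Farther out, 19373 of 53433 were called (8684 higher, 10689 lower) and 15680 were equal. Of 9124 genes whose RefSeq promoter overlapped a region, 7262 were equal there (79.6%), 929 lower and 307 higher. The equality test needs signal: with regions split into 4 equal groups by mean accessibility, it called 70.3% of the highest group and 5.12% of the lowest. The difference test went the other way, with 22.0% called in the highest and 46.1% in the lowest group, so shares by position also move with signal.

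**Figure D4:**
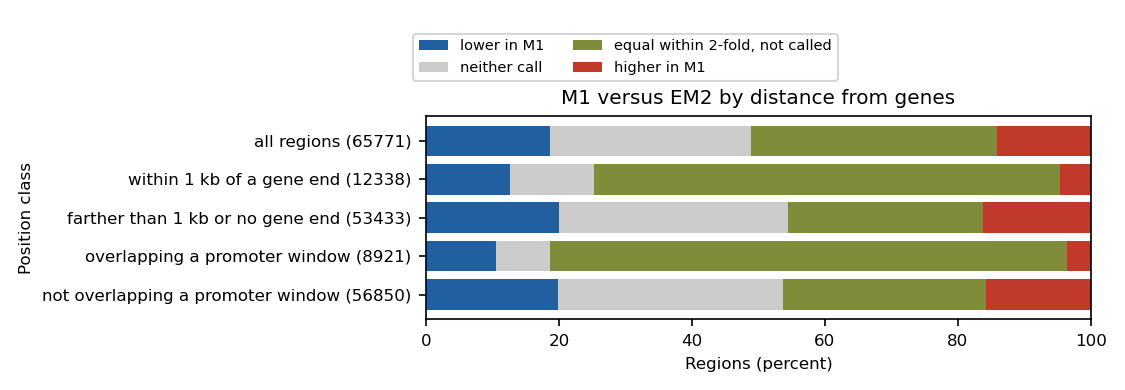
Share of regions that were lower in M1, passed neither test, were equal within 2-fold, or were higher in M1, in percent, by distance from genes, with the number of regions in brackets. Regions over promoter windows were equal in 77.7% of cases and all other regions in 30.6%.

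Genes with an equal promoter could hold a changed region nearby. Of 4672 genes with an equal promoter and at least 1 other region, 2458 (52.6%) had a called other region: 763 only higher ones, 1218 only lower ones and 477 both. Of all regions that overlap no promoter window, 35.6% were called, and the share of genes also depends on how many regions each holds. MET, the hepatocyte growth factor receptor gene, had 60.9 and 59.7 CPM in M1 and 75.8 and 68.0 CPM in EM2 at its promoter (interval -0.48 to -0.04), and 0.106 and 0.198 CPM against 11.3 and 4.68 CPM in a region 17034 bp from the gene end (log2 -5.54). TLE1, which encodes a corepressor, had 87.9 and 81.3 CPM against 96.7 and 85.4 CPM at its promoter and 0.957 and 0.529 CPM against 6.40 and 18.5 CPM in an intragenic region (log2 -4.13). In both genes the promoter was among the equal regions and the second region differed in every library. These counts by promoter were added after the values were seen.

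Promoters that were lower in M1 held the E-box letters more often than equal ones. CAGGTG stood on either strand in 249 of 929 lower promoters (26.8%), in 990 of 7262 equal promoters (13.6%) and in 46 of 307 higher promoters (15.0%). These sets come from the 9124 promoters that overlap a region, of which 1400 held it (15.3%). Of all 27305 promoters in the table, 4781 held it (17.5%). The median GC content was 63.6% in lower, 64.4% in higher and 65.2% in equal promoters. The other letters differed less in lower against equal promoters: AACCNGTT of GRHL stood in 1.72% and 1.02%, TGANTCA of AP-1 in 4.63% and 3.26%, TGTGGT of RUNX in 8.72% and 7.08%, GGAATG of TEAD in 8.61% and 8.87%, GGGTGTG of KLF in 6.89% and 5.84% and CCGGAA of ETS in 23.3% and 28.5%. In the 307 higher promoters these shares were 1.63%, 6.19%, 8.14%, 7.49%, 9.45% and 14.3%. The ETS letters were thus rarer in higher than in equal promoters, and the AP-1 and KLF letters more frequent. In the promoters that overlap a region the shares were 1.15%, 3.84%, 7.5%, 8.94%, 5.97% and 27.1%. In all promoters of the table, most of which overlap no region, they were 1.48%, 6.60%, 10.9%, 11.9%, 6.52% and 14.8%. GCCNNNGGC of TFAP2 stood in 26.0% of lower, 28.0% of higher and 27.9% of equal promoters, in 27.6% of those that overlap a region and in 19.7% of all. The degenerate pattern of p63 stood in 84.7% of promoters that overlap a region and 68.3% of all, and the longer one of CTCF in 0.26% and 0.18%. A match is a description of letters and not a bound site.

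The other M clone gave a second readout of these regions. M2 and Parental libraries are on neither side of the M1 to EM2 contrast, but they share its fit and its estimate of the spread. Of the 12243 regions lower in M1 than in EM2, 76.1% were also lower in M2 than in Parental, against 34.9% of all regions. Of the 9257 higher regions, 56.5% were higher in M2 than in Parental, against 32.1% of all. In the opposite direction, 6.83% of the lower regions were higher in M2 than in Parental, and 16.2% of the higher regions were lower. Seen from M2, 40.6% of the regions it had lower than Parental were lower in M1 than in EM2, and 24.8% of those it had higher were higher in M1. Regions lower in M1 than in EM2 were thus low in M2 more often than regions higher in M1 were high there. This difference is one of counts and was not tested. The lower regions had a median of 13.7 CPM in Parental and the higher regions 3.90 CPM. The shares of all regions are not matched for that level. The comparison with M2 was added after the values were seen.

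In some stretches of neighbouring regions 1 or more groups had almost no counts. On chr5:10551279-10914191, 15 neighbouring regions over ANKRD33B and DAP held 1 count in the M1 libraries, 3276 in the EM2 libraries and 4738 in the Parental libraries, a ratio of EM2 to M1 of 3116 with a 95% counting interval from 559 to 123096. The other 4 groups held 2500 to 5213 counts there. On chr9:26265252-28365621, 21 regions near CAAP1, PLAA, TEK and MOB3B held 4663 counts in M1 and 4794 in EM2 but 19 in Parental, 6 in EM3 and 0 in EM1. M2 held 6779 counts there and E 555, so counts in this stretch were not particular to M1 and EM2. The regions of PLAA, MOB3B and TEK that were equal in M1 and EM2 and above Parental lie in this stretch, and that of TUSC1 lies near it. All 4 equality calls were lost by DESeq2 and with any single M1 or EM2 library left out (highest adjusted p = 0.48, TEK). TEK also had 1 region that differed, with 0.213 and 0.198 CPM in M1 against 17.1 and 10.4 CPM in EM2 and no count in Parental. Closed chromatin and missing DNA cannot be told apart from these counts.

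Some wide windows also shifted as a whole. The median log2 difference over 302 windows of 10 Mb was -0.03, with a range from -1.12 to 0.71, and 13 windows lay below -0.5 and 3 above 0.5. The lowest was at 50 to 60 Mb of chromosome 8, where M1 lay 0.91 below Parental and EM2 0.21 above it. On chromosome 8, 1121 of 3350 regions were lower in M1 and 373 higher, and GRHL2, ESRP1 and SNAI2 lie there. With the median of each window removed, 19759 regions were called, 9032 higher and 10727 lower, of which 18288 were also called without that step, and 1 of these with the opposite sign.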

How the data were processed

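Counts per region in 14 ATAC-seq libraries were deposited by the authors as whole numbers in 65774 regions, without normalization. Tools named in the submitters' processing notes are MACS2 2.1.1, featureCounts, Bowtie2 2.2.6 with the build hg38, deepTools, cutadapt 1.9.1, Picard and bcl2fastq 2.20.0.422. Their roles and the merging of regions are not given in the sources used here. Peak lists and the separate region file were not used.

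Counts were scaled by TMM and tested in R 4.3.3 by the quasi-likelihood F test of edgeR 4.0.16 over all 14 libraries with 7 group means. The filter (minimum count 10) removed 3 regions. The Benjamini-Hochberg method adjusted p over 65771 regions, with calls at 0.05. The common biological coefficient of variation was 0.208. Equality within 2-fold was tested by 2 one-sided limma 3.58.1 voom tests, with a 95% interval. Counting intervals cover counting error only.

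Each region was given the protein-coding gene of RefSeq GRCh38.p14 whose boundary lay closest, up to 50 kb. The table gives a start site only for genes with a promoter entry. There were 22 lists with 542 genes, 541 in the table and 484 with a region. The genes named are the 12 largest differences each way (non-overlapping libraries, mean above the median, gene end within 10 kb), up to 3 regions with the smallest p per list and direction, the gene-end regions of 34 EMT genes, the 10 equal regions farthest above and the 10 farthest below Parental, up to 2 equal regions with the narrowest interval per list, and the 8 genes with the most called regions each way. The text gives a subset of these, and one further gene is not reported here. Members, lists and rules were chosen with earlier results of these data known.

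Alternatives were other scalings (library totals, DESeq2 size factors, loess), no filter, DESeq2 1.42.0, a log2 limit of 1, a 1.5-fold bound, a replicate block, subsets of libraries, removal of 10 Mb window medians and leaving out each M1 and EM2 library. Leaving out a library leaves a group with 1 library, assumed to vary like the others. For the mean of M1 and EM2 against Parental, the scalings, the filter, the window medians, the fit without E and M2 libraries and the left-out libraries were added after the data were seen. The tests were tested on simulated data.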

Additional observations from a re-analysis of the deposited data

How the results depend on the processing

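No count or named region listed here or in the report changed direction under any alternative run, but with the 10 Mb window medians removed 1 of 18288 regions called both times had the opposite sign. Leaving out single M1 or EM2 libraries gave 14589 to 17743 regions differing between M1 and EM2 in place of 21500, with 6428 to 7818 higher and 8143 to 9925 lower in M1, and 13639 to 18774 regions equal in place of 25240. With E replicate 1 left out instead, 23382 differed, 10441 higher and 12941 lower, and 25837 were equal. For the mean of M1 and EM2 against Parental the range was 18078 to 19649 in place of 21077. Lower calls fell to 8143 without M1 replicate 2. Equality calls fell to 13639 without M1 replicate 2 and to 16601 without EM2 replicate 2, and to 0 with a bound of 1.5-fold (12668 at an unadjusted p under 0.05, limma). The reason for the lower counts with a library left out was not tested. DESeq2 called 22114 regions different and 22354 equal. The fit of the 4 libraries alone called 19584, 9334 of them higher.

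The replicate block called 26847 regions different, 29878 equal and 26207 against Parental. The deviations of same-numbered M1 and EM2 libraries correlated at 0.29, but with only 2 numbers the pairing is not established. Under the block the EHF gene-end region was called lower (adjusted p = 0.013). Of 169 named differences 146 stayed on the same side of the threshold under every alternative, and of 73 named equalities 50 did so apart from the 1.5-fold bound. Depth limits the weakest regions most: the equality test called 5.12% of the lowest of 4 equal groups by signal.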
